A study of Mus musculus with 4 samples.

Results

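The 10 genes described here encode regulators of exit from the cell cycle, chosen by symbol as the rows named Cdkn1a, Cdkn1b, Cdkn1c, Cdkn2c, Rb1, Rbl1, Rbl2, Ccnd1, Ccnd2 and Ccnd3. Each symbol had 1 row in each of the 4 libraries, among 24850 named entries in the total RNA libraries and 24992 in the polyA libraries. All 4 libraries came from C2C12, a line of mouse myoblasts whose cells fuse into myotubes after transfer from growth medium to low-serum differentiation medium (DM). The myoblast library (MB) was labelled DM -24 h and the myotube library (MT) DM 72 h, and both were made from rRNA-depleted total RNA. A figure legend of the study gives another time in DM for MT, so that time is uncertain. The other two came from polyA RNA of cells labelled DM 48 h that had been transfected with an siRNA against hnRNPL (si-hnRNPL) or with a control siRNA (si-NC), with the switch to DM after transfection. These are transient transfections of a single clonal line, and the labels call the cell type C2C12 myoblasts in all 4 libraries. Each condition had 1 library, so no difference below has a replicate check and none was tested.

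Growth-arrested myoblasts leave the cell cycle permanently as they become myotubes. D-type cyclins activate CDK4 and CDK6, which phosphorylate the pocket proteins pRb, p107 and p130. Hypophosphorylated pocket proteins bind E2F factors and hold down the genes for DNA replication and mitosis. The CDK inhibitors p21, p27 and p57 bind cyclin-CDK complexes, whereas p18 (INK4c) binds CDK4 and CDK6 directly. In muscle, p21 is induced by MyoD, pRb keeps nuclei of myotubes arrested, and cyclin D3 is known to rise during differentiation while cyclin D1 declines.

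The siRNA sequences are shown because the second comparison rests on them, and both are listed in the study's oligonucleotide table. That table marks the first hnRNPL siRNA as the one used for sequencing.
si-hnRNPL #1: gcgugcuucuguuuaccau
si-NC: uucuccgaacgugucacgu
The first strand, 19 bases long, matched coding transcripts of 1 gene, Hnrnpl, in the coding part of exon 4 of 14 of Hnrnpl-001 (mm9, chr7:29599064-29599082). The control strand matched 0 coding transcripts.

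Hnrnpl, the siRNA target, had an FPKM (fragments per kilobase of transcript scaled to the number of mapped fragments) of 111 in MB, 63.0 in MT, 95.1 in si-NC and 85.9 in the library labelled si-hnRNPL. Its mRNA in that library was thus at 90.4% of si-NC, a log2 ratio of -0.14 (95% interval -0.20 to -0.09), which does not pass the 1.5-fold used as the call. The direction of every difference between these libraries is therefore that of the library labelled si-hnRNPL, whose mRNA level shows little loss of the target. The study reports knockdown of hnRNPL, examined by Western blot after siRNA transfection and the same time in DM. Protein was not measured in these libraries. Among markers of differentiating muscle, 6 of 6 were higher in MT than in MB (log2 ratios 2.22 to 7.52), and their summed FPKM was 13.6 in MB, 1216 in MT, 1787 in si-NC and 2601 in si-hnRNPL. Of 5 myoblast and reserve cell markers, Spry1 was higher in MT (log2 3.09) and the other 4 did not pass the fold, and 0 of the 5 passed it between si-hnRNPL and si-NC. Markers of other cells were mostly at or near 0. The exceptions were Pparg of the adipocyte list, at 14.8 in MB, 3.94 in MT, 3.37 in si-NC and 4.39 in si-hnRNPL, and Cd68 of the macrophage list, at 1.13, 0.774, 0.935 and 0.396, close to the level of Cdkn1c in some libraries. Fabp4 was at most 0.251, Adipoq at most 0.0446 and the leukocyte gene Ptprc at most 0.00871. The macrophage gene Adgre1 was listed at 0 in all 4 libraries and the endothelial genes Pecam1 and Cdh5 summed to at most 0.0301. The Cufflinks intervals imply 14592485 to 59960176 fragments per library, with the polyA libraries the shallower pair by this measure. Of implied counts under 200, 90.5% in MB and 90.4% in MT were whole numbers, against 39.3% in si-NC and 38.1% in si-hnRNPL. The polyA intervals thus hold more than counting error, and the depth of those libraries may be understated. In bulk RNA, fewer cells of a kind and less RNA per cell cannot be told apart.

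Within each class of regulator, some members were higher and others lower in MT than in MB. From MB to MT, 5 of the 10 genes were at least 1.5-fold higher (Cdkn1a, Cdkn1c, Rb1, Rbl2 and Ccnd3), 4 were at least 1.5-fold lower (Cdkn2c, Rbl1, Ccnd1 and Ccnd2) and Cdkn1b did not pass that fold. Across all 18624 named entries above 0 in either library, 10.3% were higher and 18.1% lower by the same rule. Where both libraries reached an FPKM of 1, which held for 10791 entries and for all 10 genes, 11.9% were higher and 28.5% lower. The median log2 ratio of the 10 genes was 0.50, against -0.23 for those 10791 entries. Relative to that median, Cdkn1b passed the fold (0.60) and Ccnd2 did not (-0.46), and with libraries scaled to the same sum or upper quartile of FPKM neither Cdkn2c nor Ccnd2 passed. The 95% intervals of the 2 libraries did not overlap for 10 of 10 genes and for 85.4% of the 10791 entries. These intervals cover counting and read assignment within a library only.

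**Figure D1:**
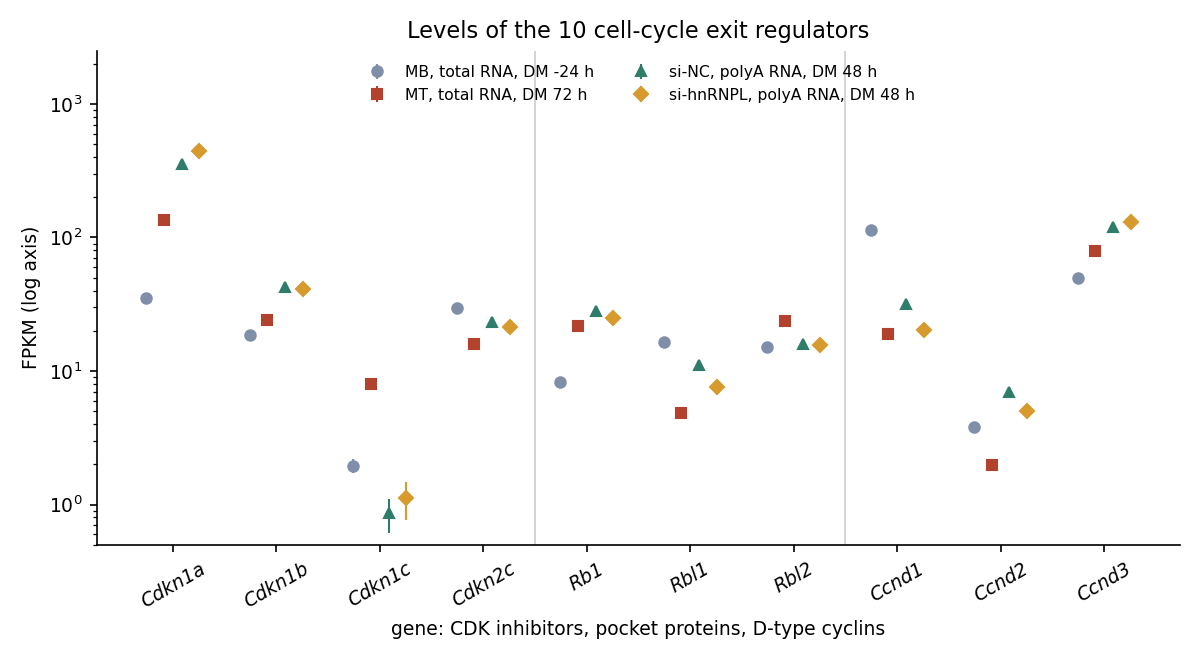
FPKM of the 10 genes (log axis) in the 4 libraries, 1 library per condition, with bars for the Cufflinks 95% intervals where these exceed the symbol. Ccnd1 is the highest of the 10 in MB at 113, and Cdkn1a in the other 3 libraries at 135, 355 and 447.

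The CDK inhibitors diverged. Cdkn1a, encoding p21 (mm9, chr17:29227931-29237667), had an FPKM of 35.3 in MB, 135 in MT, 355 in si-NC and 447 in si-hnRNPL. It was the most abundant of the 10 genes in each library but MB, where it was the third. MT exceeded MB 3.84-fold, a log2((FPKM + 1) ratio) of 1.91 (1.86 to 1.96). Cdkn1c, encoding p57 (chr7:150644244-150646955), was scarce throughout, with an FPKM of 1.96 in MB, 7.93 in MT, 0.860 in si-NC and 1.13 in si-hnRNPL. Its ratio of MT to MB was the largest of the 10 at 4.05-fold, although on the log2(FPKM + 1) scale, which compresses low values, it came to 1.60 (1.46 to 1.73). The values in si-NC and si-hnRNPL rest on 48 and 39 implied fragments. Cdkn1b, encoding p27 (chr6:134870419-134875543), had an FPKM of 18.5 in MB, 24.3 in MT, 42.9 in si-NC and 41.4 in si-hnRNPL. Its MT level was 1.32-fold the MB level (log2 0.38, 0.32 to 0.44), short of the call, whereas the intervals of the 2 libraries were apart. Cdkn2c, encoding p18 (chr4:109333481-109339361), was the inhibitor among the 10 genes that was lower in MT. It stood at 29.4 in MB, 15.8 in MT, 23.4 in si-NC and 21.4 in si-hnRNPL (MT over MB log2 -0.85, -0.95 to -0.75). Cdkn2d, an INK4 gene outside the 10, was lower as well (log2 -1.57 and -1.50 at its entries).

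As a share of the summed FPKM of the 4 inhibitors, Cdkn1a made up 41.5% in MB (bounds from the intervals 39.7 to 43.2) and 73.8% in MT (72.6 to 74.97). Cdkn2c made up 34.5% in MB and 8.64% in MT. Cdkn1a was above Cdkn2c in both libraries. Such shares do not depend on how a library is scaled, but the share of Cdkn2c also moves with the total, which Cdkn1a dominates in MT. Cdkn1b stood at 21.7% and 13.2%, losing share although its FPKM was higher. The summed FPKM of the inhibitors was 85.0 in MB and 183 in MT.

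The pocket protein genes changed order. Rbl1, encoding p107 (chr2:156971630-157030270), was the highest of the 3 in MB at an FPKM of 16.5 and the lowest in MT at 4.89, a log2 ratio of -1.58 (-1.66 to -1.49). It stood at 11.1 in si-NC and 7.62 in si-hnRNPL. Rb1, encoding pRb (chr14:73595309-73725598), was 8.31 in MB, 21.6 in MT, 28.3 in si-NC and 24.8 in si-hnRNPL, and the MT to MB ratio was 2.597-fold (log2 1.28, 1.22 to 1.33). The third gene, Rbl2 (chr8:93593956-93647743), encodes p130, the pocket protein typical of resting cells. Its FPKM was 15.1 in MB, 23.8 in MT, 15.9 in si-NC and 15.7 in si-hnRNPL. MT exceeded MB by a log2 ratio of 0.62 (0.58 to 0.67), with the lower bound just under the call at 0.58. In shares of the pocket protein FPKM, Rbl1 went from 41.4% to 9.71%, Rb1 from 20.8% to 42.9% and Rbl2 from 37.8% to 47.4%. The summed FPKM of the 3 genes differed much less, at 39.97 in MB and 50.3 in MT. Within a library, Rbl1 was 1.09 times Rbl2 in MB and 0.205 times Rbl2 in MT.

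Among the D-type cyclins, Ccnd1 and Ccnd3 exchanged rank. Ccnd1, encoding cyclin D1 (chr7:152115836-152125830), was the most abundant of all 10 genes in MB with an FPKM of 113, and stood at 18.8 in MT, 31.9 in si-NC and 20.4 in si-hnRNPL. The MT level was 16.6% of MB, a log2 ratio of -2.53 (-2.57 to -2.49), the lowest of the 10. Ccnd3, encoding cyclin D3 (chr17:47642000-47736637), had an FPKM of 49.5 in MB, 79.0 in MT, 119 in si-NC and 132 in si-hnRNPL, and MT over MB was 1.60-fold (log2 0.66, 0.62 to 0.71). Ccnd2, encoding cyclin D2 (chr6:127075727-127101066), was the minor form in all 4 libraries, at 3.78 in MB, 1.96 in MT, 6.996 in si-NC and 5.06 in si-hnRNPL (MT over MB log2 -0.69, -0.77 to -0.61). Ccnd1 made up 68.0% of D-type cyclin FPKM in MB (67.3 to 68.8) and 18.9% in MT (18.2 to 19.6), while Ccnd3 went from 29.7% to 79.2%. Ccnd3 was thus 0.437 times Ccnd1 in MB and 4.19 times Ccnd1 in MT. The summed FPKM of the D-type cyclins was 167 in MB and 99.8 in MT. The summed inhibitors amounted to 0.510 times the summed D-type cyclins in MB (0.484 to 0.537) and to 1.84 times in MT (1.76 to 1.92). These are ratios of mRNA, and no protein was measured in these libraries.

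**Figure D2:**
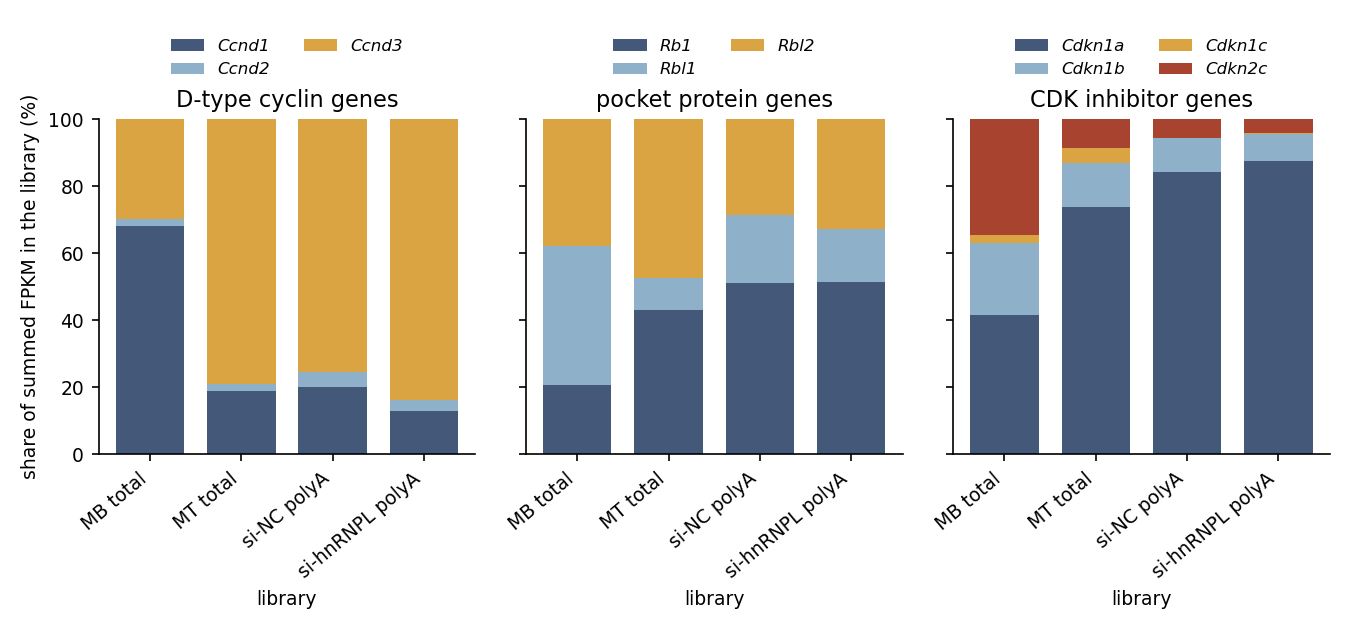
Share (%) of each gene in the summed FPKM of the D-type cyclins, the pocket proteins and the CDK inhibitors in each library. Ccnd1 holds 68.0% of the D-type cyclin FPKM in MB and Ccnd3 holds 79.2% in MT.

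In order of FPKM within MB, Ccnd1 led, followed by Ccnd3, Cdkn1a, Cdkn2c, Cdkn1b, Rbl1, Rbl2, Rb1, Ccnd2 and Cdkn1c, and no neighbouring intervals overlapped. In MT the order ran Cdkn1a, Ccnd3, Cdkn1b, Rbl2, Rb1, Ccnd1, Cdkn2c, Cdkn1c, Rbl1 and Ccnd2, in which Cdkn1b and Rbl2 overlapped. In si-NC it ran Cdkn1a, Ccnd3, Cdkn1b, Ccnd1, Rb1, Cdkn2c, Rbl2, Rbl1, Ccnd2 and Cdkn1c, and no neighbours overlapped. In si-hnRNPL it ran Cdkn1a, Ccnd3, Cdkn1b, Rb1, Cdkn2c, Ccnd1, Rbl2, Rbl1, Ccnd2 and Cdkn1c, in which Cdkn2c and Ccnd1 overlapped. The polyA and total RNA libraries also differ in time, in library type and in transfection, so their levels stand side by side here without a comparison.

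**Figure D3:**
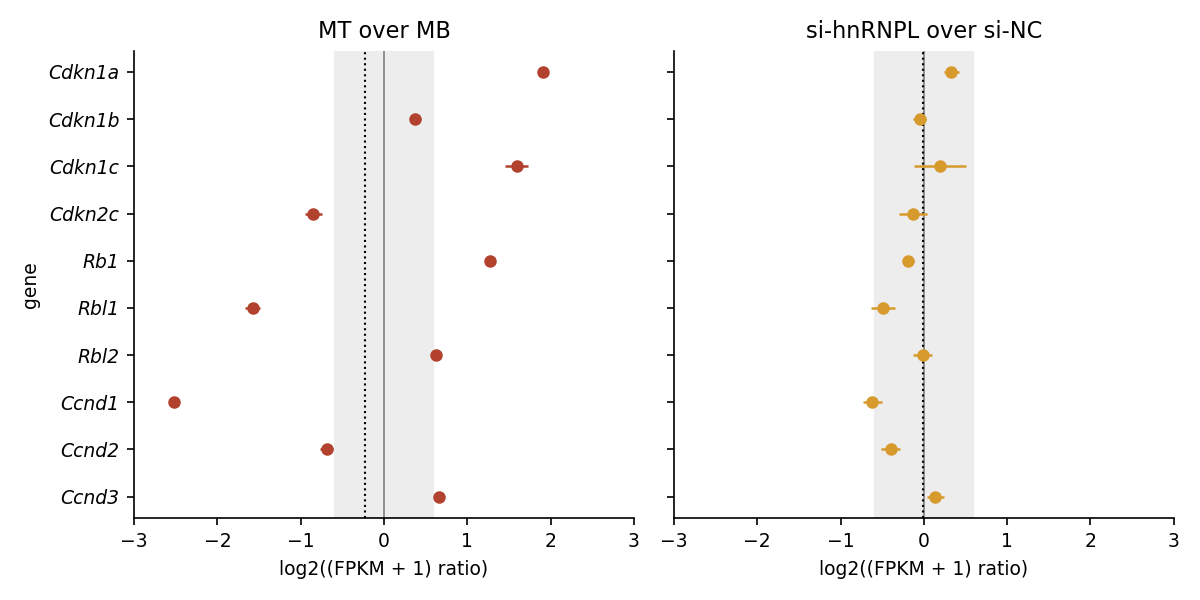
Log2((FPKM + 1) ratio) of the 10 genes for MT over MB and for si-hnRNPL over si-NC, with bars for 95% intervals. Grey marks ratios under 1.5-fold, and the dotted line the median of named entries reaching an FPKM of 1 in both (-0.23 and -0.01); of the 10 points, 9 lie outside the grey area for MT over MB and 1, Ccnd1, for si-hnRNPL over si-NC.

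The second comparison was made in the study to find genes affected by depletion of hnRNPL, an RNA-binding protein. With Hnrnpl mRNA at 90.4% of si-NC, it is given here as a difference between the libraries so labelled. Ccnd1 was the single gene of the 10 past 1.5-fold. It was lower in the library labelled si-hnRNPL, with an FPKM of 20.4 against 31.9 in si-NC (log2 -0.62, -0.73 to -0.51), and the interval includes ratios short of the call. Of 16767 named entries above 0 in either library, 0.996% were higher and 0.608% lower at this fold. No member was higher past the fold. Where both libraries reached an FPKM of 1 (11090 entries), the shares were 1.11% and 0.739%, and Cdkn1c did not reach that level in si-NC. A figure legend of the study gives a higher cutoff for this comparison, which Ccnd1, 1.56-fold lower, did not reach.

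The remaining differences were smaller. Intervals of si-hnRNPL and si-NC were apart for 6 of the 10 genes, against 33.8% of the 11090 entries. Rbl1 was at 68.7% of si-NC (log2 -0.49, -0.63 to -0.35) and Ccnd2 at 72.3% (log2 -0.40, -0.52 to -0.28). Cdkn1a was 1.26-fold higher (log2 0.33, 0.24 to 0.42), Ccnd3 1.10-fold higher (log2 0.14, 0.04 to 0.24), and Rb1 was at 87.4% (log2 -0.19, -0.26 to -0.12). For Cdkn1b, Cdkn1c, Cdkn2c and Rbl2 the interval of the log2 ratio included 0. The widest of these, for Cdkn1c, ran from -0.12 to 0.50, so differences anywhere between those bounds remain possible for it. For Rbl2 the bounds were -0.13 and 0.10.

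In shares, Ccnd1 made up 20.2% of the D-type cyclin total of si-NC (18.6 to 21.8) and 13.01% of that of si-hnRNPL (11.8 to 14.4), with Ccnd3 at 75.4% and 83.8%. The summed D-type cyclin FPKM was nearly the same, at 158 and 157. The part of Rbl1 among pocket protein transcripts was 20.1% in si-NC and 15.9% in si-hnRNPL, while Rb1 held 51.2% and 51.5%. The summed inhibitors were 2.67 times the summed D-type cyclins in si-NC (2.43 to 2.93) and 3.25 times in si-hnRNPL (2.95 to 3.59), intervals that do not overlap. Other measures moved with these values. Summed differentiating-muscle markers were higher in si-hnRNPL, as given above, with Ckm (log2 0.71) and Acta1 (0.61) past the fold, and the rRNA precursor entry Rn45s stood at an FPKM of 954 against 383 in si-NC. Across 9860 protein-coding genes, the log2 ratio also varied with transcript length (Spearman's rho -0.45) and with GC content (0.43). With both taken out, Ccnd1 was at -0.60, Rbl1 at -0.37 and Ccnd2 at -0.29, while Ccnd3 was at -0.01 in place of 0.14. Rb1 was then at -0.05 in place of -0.19, and Cdkn1a at 0.22 in place of 0.33. The part of the muscle markers and of Rn45s in these differences was not tested.

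Set side by side, the 4 genes that were lower in MT were also below si-NC in si-hnRNPL (median log2 -0.44), whereas the 5 that were higher in MT split into 3 above and 2 below. Of the 2874 named entries that reached an FPKM of 1 in all 4 libraries and were lower in MT by this fold, 58.8% were below si-NC, with a median of -0.04. Of the 1202 such entries that were higher in MT, 45.8% were below si-NC, with a median of 0.02, so the split of the 5 genes lay near that of all entries. Spearman's rho between both log2 ratios was 0.85 over the 10 genes and 0.13 over the 10077 named entries that reached an FPKM of 1 in all 4 libraries, which Cdkn1c did not. The other cell-cycle genes described below lay nearer to the 10, with a rho of 0.67 over 30 genes and 20 of 21 genes lower in MT below si-NC (95.2%), so the pattern was not particular to the 10 genes. These correlations are across genes, which are not independent replicates, and all points share the same 4 libraries.

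**Figure D4:**
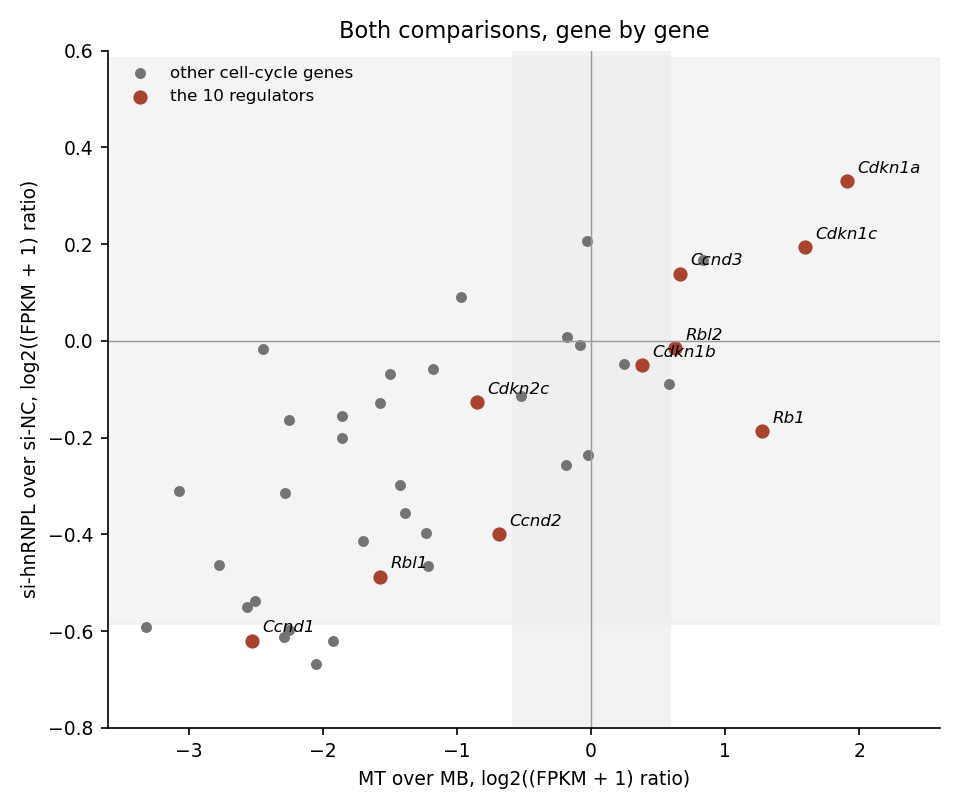
Log2((FPKM + 1) ratio) of MT over MB (horizontal) against that of si-hnRNPL over si-NC (vertical) for the 10 genes (red, named) and the other cell-cycle genes above 0 (grey), each point 1 entry. Shading marks ratios under 1.5-fold, and Ccnd1 lies at -2.53 and -0.62, beside the replication and mitosis genes.

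The surrounding pathway was represented by 33 further genes in 34 entries, of which 23 were lower in MT, 1 was higher and 10 did not pass the fold (median log2 -1.46). Of the 10791 named entries that reached an FPKM of 1 in both libraries, 28.5% were lower and 11.9% higher. All 5 E, A and B cyclins were lower, from Ccne2 at -2.29 to Ccnb1 at -3.08. Ccna2, encoding the cyclin of S phase and mitotic entry, went from an FPKM of 108 (MB) to 15.0 (MT). The catalytic partners of the D-type cyclins differed less. Cdk4 was 232 in MB and 118 in MT (log2 -0.97), and Cdk6 was 21.8 and 8.82 (-1.22). Their INK4 inhibitors Cdkn2a and Cdkn2b were listed at 0 in all 4 libraries. Cdkn2d, encoding p19, was listed at 2 loci, both lower in MT (log2 -1.57 and -1.50), and near-identical copies can share reads, so its level is uncertain.

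A list drawn up around the turnover of p27 and p21 held Skp2, Cks1b, Cks2, Dtl and Fbxw7. All but Fbxw7 (log2 0.24) were lower, 4 of 5, beside 28.5% of named entries reaching an FPKM of 1 in both libraries. The list is broad, and a role in that turnover is described here for Skp2, Cks1b and Dtl only. Skp2 and Cks1b encode parts of the ubiquitin ligase that marks p27 for degradation. Skp2 was 25.1 in MB and 6.18 in MT (log2 -1.86), and Cks1b 141 and 28.8 (-2.25). Dtl, encoding the substrate receptor for p21, was 15.5 and 2.98 (-2.05). Among partners of the pocket proteins, 4 of 8 were lower, nearer to that share of 28.5%. Mybl2, which replaces p130 in the MuvB complex of cycling cells, had the lowest ratio of the whole list, from an FPKM of 18.9 in MB to 0.995 in MT (-3.32). The core MuvB genes Lin37 (-0.03), Lin52 (-0.19) and Rbbp4 (-0.18) did not pass the fold, while Lin9 (-1.39) and Lin54 (-1.23) did. Tfdp1, encoding the main E2F dimer partner, was lower (-1.42), and Tfdp2 lay just short of the call on the other side at 0.58. Of the upstream activators, Myod1 was higher (36.6 in MB, 65.9 in MT, log2 0.83), Trp53, encoding p53, was lower (82.7 and 35.9, -1.18), and the acetyltransferase genes Crebbp (-0.09) and Ep300 (-0.03) stayed within the fold. All 4 proliferation markers were lower, from Pcna at -1.70 to Mcm2 at -2.50.

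In the library labelled si-hnRNPL, 5 of the 34 pathway entries were lower past the fold, 0 were higher and 29 did not pass (median log2 -0.22). Of the 11090 named entries reaching an FPKM of 1 in both libraries, 0.739% were lower and 1.11% higher. The 5 pathway entries were Dtl (-0.67), Mki67 (-0.62), Ccne2 (-0.61), Top2a (-0.60) and Mybl2 (-0.59), beside Ccnd1 at -0.62. Cdk4 stood at 0.09 and Cdk6 at -0.47. With transcript length and GC content taken out, 2 of the 34 were lower past the fold.

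The genes whose pattern over the 4 libraries lay closest to Cdkn1a, the largest difference upward on the log2 scale, were H19, Trp53inp2 and Medag, by Euclidean distance over centred log2(FPKM + 1) among 10076 entries (0.21, 0.26 and 0.30). H19, an imprinted noncoding RNA, had an FPKM of 165 in MB, 662 in MT, 1432 in si-NC and 1901 in si-hnRNPL. Closest to Ccnd1 were Wdhd1 (0.074), Cdca7 (0.15) and Dctd (0.17). Wdhd1, a replisome component, had an FPKM of 22.5 in MB, 3.14 in MT, 5.53 in si-NC and 3.56 in si-hnRNPL. Over 4 values per gene, such closeness describes the libraries only.

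The Ccnd3 locus carried a further signal. The total RNA tables list 36780 assembled units beside the named genes, and 20 of them lay over the loci of the 10 genes, 19 in Ccnd3 and 1 in Cdkn1a. Ccnd3 has a long transcript (mm9, chr17:47642000-47736632, plus strand, 7 exons), and a short one with 5 exons that starts 88.4 kb further downstream at position 47730416. The 250 bases before each start are shown, because the units lie between them, from RefSeq with GRCm38.p6 coordinates on the plus strand.
Ccnd3 upstream start, chr17:47504801-47505050: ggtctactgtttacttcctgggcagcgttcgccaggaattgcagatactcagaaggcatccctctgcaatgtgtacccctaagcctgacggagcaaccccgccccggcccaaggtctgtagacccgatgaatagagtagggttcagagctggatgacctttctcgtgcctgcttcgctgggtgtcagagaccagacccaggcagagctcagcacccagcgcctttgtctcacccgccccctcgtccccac
Ccnd3 downstream start, chr17:47593217-47593466: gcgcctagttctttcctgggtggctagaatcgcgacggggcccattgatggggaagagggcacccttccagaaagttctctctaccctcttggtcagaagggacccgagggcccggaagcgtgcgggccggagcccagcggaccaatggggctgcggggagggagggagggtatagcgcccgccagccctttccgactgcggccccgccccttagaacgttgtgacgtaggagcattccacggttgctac
All 19 units were intronic, with 15 in the first intron of the long transcript and 4 in the second, and 0 overlapped an exon. They lay 0.22 to 85.1 kb from the upstream start, and all ended before the downstream one. Each was 247 to 1891 bases long.

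In MB the 19 units had an FPKM of 0 to 0.241, and 6 of them were at 0. In MT they ran from 0.537 to 1.74 with a median of 1.19. No MB value reached the lowest MT value. Units are listed because reads assembled into them, and 15 of the 19 had at most 3 implied fragments in MB, so the direction of these differences is in large part set by how the units came to be listed. The log2((FPKM + 1) ratio) was 0.59 to 1.45 with a median of 1.03, against 0.66 for Ccnd3 itself. The added 1 compresses the ratios of the units, which are low, and hardly that of Ccnd3, so these values are not on a like scale. Summed over the 19 units, FPKM was 1.31 in MB and 22.3 in MT, against 49.5 and 79.0 for Ccnd3. Over all 36780 units, 19.6% were higher in MT by 1.5-fold and 3.03% lower. The units in Ccnd3 lie in the same introns, so they are not independent of each other. Summed over the 19 units, the intervals imply 63 MB fragments and 767 MT fragments. Among 4827 named loci that span at least 50 kb, 65.8% held no unit and 4.56% held 19 or more. The longer Rb1 locus, at 130 kb, held 0 units, as did Rbl1 and Rbl2. The single unit in Cdkn1a had a log2 ratio of 0.14 and did not pass the fold. Whether the units are unspliced Ccnd3 RNA or separate transcripts cannot be told apart in these tables.

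**Figure D5:**
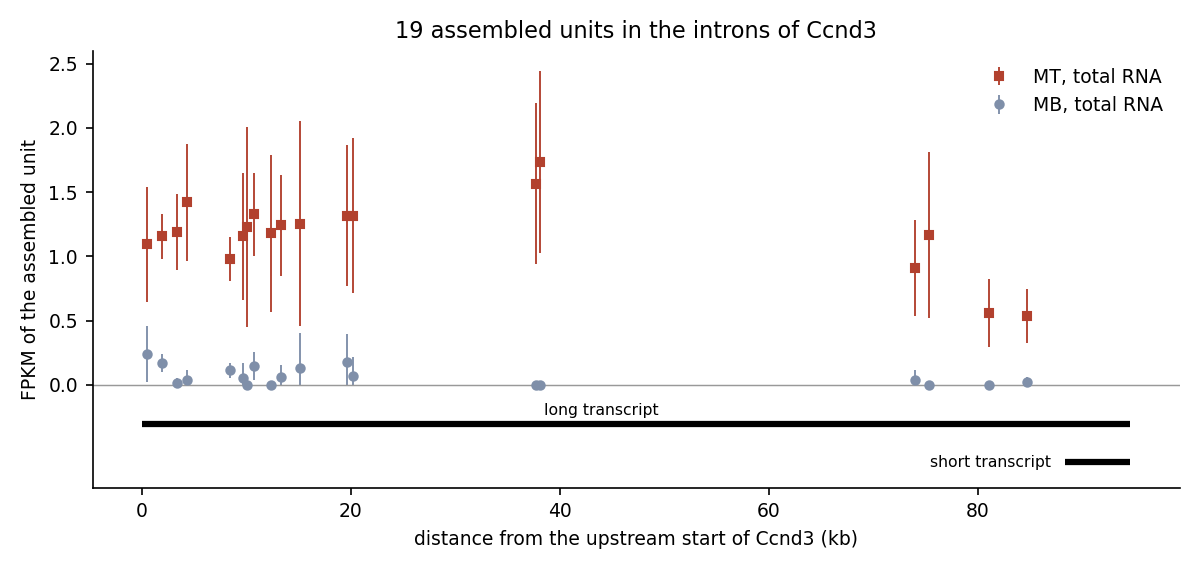
FPKM of the 19 assembled units in the Ccnd3 introns, with Cufflinks 95% intervals, against the distance (kb) of each unit's middle from the upstream start, in MB and MT. Black lines show the extents of the long and short transcripts, and MT values (0.537 to 1.74) lie above the MB values (0 to 0.241) throughout.

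Promoter sequence was read for the members that have a start in the RefSeq table, 6 of the 10 with 9 starts. Cdkn1c, Rb1, Ccnd1 and Ccnd2 were not matched. The E-box CANNTG, the motif of MyoD and its partners, was found in 2 of the 9 windows of 250 bases, against 66.2% of 32851 windows of all genes on either strand. The first was in Cdkn1a, 187 bases before its second start, and the second in Rbl1, 183 bases before the start. A search for 4 E2F-type 8-base motifs, TTTCCCGC, TTTGGCGC, TTTCGCGC and TTTGCCGC on both strands, found 1 of the 9 windows, that of Rbl1, against 1.86% of all windows. The Rbl1 window is shown because it alone held both motifs and because Rbl1 is the pocket protein gene that was lower in MT, with the E-box and the E2F-type motif in capitals (GRCm38.p6, minus strand).
Rbl1 start, chr2:157204535-157204784: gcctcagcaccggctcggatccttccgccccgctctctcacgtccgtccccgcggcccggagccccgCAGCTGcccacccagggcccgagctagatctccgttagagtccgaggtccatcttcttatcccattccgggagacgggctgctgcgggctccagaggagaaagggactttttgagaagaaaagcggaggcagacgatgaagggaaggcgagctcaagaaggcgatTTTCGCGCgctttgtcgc
The E2F-type motif starts 18 bases before the start of transcription. A match is a description of letters and not of binding, which these libraries do not measure.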

How the data were processed

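C2C12 RNA was sequenced in 4 libraries, 1 per condition. The authors trimmed reads, discarded those under 36 bases, mapped them with TopHat2 to mm9 and quantified them with Cufflinks. The deposited values are FPKM per gene or assembled unit with a 95% interval. Total counts were not used here, and depth was implied from the intervals as (2 × FPKM / (upper bound - FPKM)) squared, summed over entries. Where read assignment widens the intervals, this understates depth.

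Ratios were computed as log2((FPKM + 1) ratio), with the distances to the interval bounds combined in quadrature, and called at 1.5-fold. That is the threshold in the study's methods, although a figure legend of the study gives a higher one for si-hnRNPL over si-NC. The intervals hold the error of counting and read assignment and leave out the spread between cultures. With 1 library per condition no test was run. Shares were taken from FPKM, which is per length, within a library. Genes named were the 10 members, Hnrnpl, the pathway list (past the fold or direct partners), the 3 entries nearest to the members with the largest rise and fall, and the cell type markers. Members and lists were chosen with earlier results of these data known. Transcript length and GC came from the longest protein-coding transcript per gene (GENCODE, mm9), and their effect was taken out as medians over 20 bins. This, for the members and the pathway list, was partly chosen after seeing the data. Promoter windows came from RefSeq (GRCm38.p6). Rb1, Rbl2, Ccnd2 and Ccnd3 overlap other named genes (Lpar6 and Mir687, Aktip, 9330179D12Rik, and Bysl), and the strand setting of the counting is not given in the sources used here. The scripts ran in Python 3.11.15 with numpy 2.4.6, pandas 2.3.3 and matplotlib 3.10.9. The calculation of ratios and their intervals was tested on simulated data with counting error only, and the other steps were not tested in this way.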

Additional observations from a re-analysis of the deposited data

How the results depend on the processing

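Scaling mattered most for MT over MB, where the median lay at -0.23 over entries reaching an FPKM of 1 in both libraries and at -0.0049 over entries above 0 in either, and matching the sums of FPKM shifted ratios by 0.54 (log2) and matching upper quartiles by 0.28. Under both scalings, 2 rather than 4 members were lower past the fold (Rbl1 and Ccnd1), with Cdkn2c and Ccnd2 no longer past it. At 2-fold, 3 members were higher and 2 lower in MT, and 0 were lower in si-hnRNPL. The shares of all named entries past the fold were not counted at 2-fold or under these scalings. Whether the lost calls are particular to the members was therefore not tested. Pathway genes higher in MT numbered 2 rather than 1 with a pseudocount of 0.1 and after centring on the median. Pathway genes lower in si-hnRNPL numbered 2 rather than 5 with length and GC content taken out, an alternative chosen after seeing the data. At an FPKM of at least 1, 0 in place of 9 units were detected in MB over member loci. The cause was not tested. Each member kept the sign of its MT over MB ratio under all 8 settings. Neither a change of pseudocount nor the summing of entries with the same symbol can reverse a sign here, so only the rescalings could have. Cdkn1b was past the fold in 4 of the 8 settings, all of them rescalings. Its ratio was 0.60 centred on the median and 0.66 centred on the 500 entries nearest in level. With matched upper quartiles it was 0.64, and with matched sums 0.90. In si-hnRNPL over si-NC, Ccnd1 was past the fold under all 9 settings of the ratio (-0.72 to -0.60), and the sign changed in some settings for Cdkn1b (-0.15 to 0.07), Rbl2 (-0.11 to 0.10) and Ccnd3 (-0.01 to 0.16). No paired analysis was possible because each condition had 1 library and the labels carry no replicate number, and for the same reason no replicate could be left out.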
